A study of Mus musculus with 6 samples.

Results

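Collagens are the main structural proteins of the extracellular matrix, and each is built from alpha chains encoded by separate genes. The collagen chain genes of mouse ovary were taken as every symbol of the count table made of Col, a number, the letter a and a number, with at least 10 counts in at least 3 of the 6 libraries. Of 35415 genes in the table, 44 had such a symbol and 41 met the minimum. Col2a1 (1, 3 and 2 counts in the wild-type libraries and 4, 1 and 1 in the Rnf111+/- libraries), Col9a1 (0, 0 and 0 against 1, 8 and 3) and Col19a1 (3, 4 and 0 against 2, 1 and 4) fell short. Col10a1, the sparsest chain just inside, had 9, 12 and 20 counts in wild type and 14, 8 and 1 in Rnf111+/- ovaries. The 41 genes were 10 fibrillar chains, 6 basement membrane chains (type IV), 7 chains of fibril-associated collagens with interrupted helices (FACIT) and 18 chains of other types.

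Whole ovaries of mice aged 3 months, taken at estrus, were profiled by bulk RNA sequencing, with 3 wild-type and 3 Rnf111+/- libraries, and the labels give a separate mouse for each. The product of Rnf111, Arkadia, tags inhibitory SMAD proteins and corepressors with ubiquitin and so promotes TGF-beta family signalling. The study made 2 mouse lines by CRISPR-Cas9 editing to model the loss of 1 copy of RNF111 in premature ovarian insufficiency. The sources used here give neither the line that was sequenced nor its edited allele or strain.

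Collagen chains fold by threes into a triple helix in the endoplasmic reticulum, after hydroxylation of prolines and lysines, and are then secreted. Fibrillar procollagens are trimmed of their end peptides and crosslinked into fibrils, type IV collagen forms the sheet-like network of basement membranes, and FACIT chains sit on the surface of fibrils. In the ovary, fibrillar collagen lies in the stroma, the tunica albuginea and the theca, and type IV collagen lies in the basal lamina of follicles and around blood vessels. TGF-beta is a known inducer of fibrillar collagen genes in fibroblasts.

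Library totals ranged from 38261449 to 39474515 counts, so that 3 counts, the smallest number treated as detected, equalled 0.0747 to 0.0784 CPM, which are counts divided by library size after scaling between libraries. Rnf111 stood at 53.8, 53.5 and 54.4 CPM in wild type and at 44.2, 44.9 and 44.7 CPM in Rnf111+/- ovaries, 82.8% of the wild-type mean (log2 fold change -0.27 ± 0.07 SE, adjusted p = 0.040). The 2 groups did not overlap, although the call was lost when any library other than wild-type replicate 3 was left out (adjusted p up to 0.146), and also with all 6 libraries under upper-quartile scaling (0.0602) and with no filter on low counts (0.0762). Wild-type replicate 3 stood apart from the other wild-type libraries: its log2 CPM correlated across genes with theirs at 0.9735 and 0.9745, against 0.9887 between those 2. It also held RNA of oviduct epithelium, with the oviduct glycoprotein Ovgp1 at 146 CPM against 1.85 to 8.05 CPM in the other 5 libraries, and the ciliated-cell regulator Foxj1 at 13.7 CPM against 0.0522 to 1.69 CPM. The other listed oviduct markers were only slightly higher in it: Sox17 at 9.22 CPM against 5.77 to 8.77 CPM, and Pax8 at 0.511 against 0.104 to 0.415 CPM. Wild-type replicate 3 differed from the other wild-type libraries in ovarian markers too. The corpus luteum markers Akr1c18 (676 CPM against 86.1 and 66.7), Sfrp4 (890 against 178 and 268) and Ptgfr (454 against 71.4 and 81.9) were higher, and Lhcgr and Parm1 were lower. Each of the 7 granulosa markers was lower, such as Inhba (116 CPM against 473 and 375). Leaving this library out therefore removes more than oviduct RNA. Markers of granulosa cells, theca and oocytes, which define the ovary, were detected in every library. Calls of collagen chains that were gained or lost without wild-type replicate 3 are given with both values.

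Summed collagen chain RNA was less abundant in Rnf111+/- ovaries. The 41 genes together took 0.596, 0.585 and 0.688% of all counts in the wild-type libraries and 0.449, 0.448 and 0.506% in the Rnf111+/- libraries, with means of 0.623% ± 0.0568 and 0.468% ± 0.0333 (SD, n = 3 each). The 2 genotypes did not overlap, and leaving out wild-type replicate 3 changed the difference between means from -0.155 to -0.123 percentage points. The sum mostly follows its most abundant chains, Col1a1, Col1a2, Col3a1, Col4a1, Col4a2 and Col6a1. Together these took 0.479% ± 0.0522 of all counts in wild type and 0.315% ± 0.0270 in Rnf111+/- ovaries (SD, n = 3 each). Of the 41 genes, 22 had a log2 fold change below 0 and 19 above 0, so the fall in the sum was not shared by all chains. Fibrillar chains accounted for most of it, at 0.316% ± 0.0433 in wild type and 0.205% ± 0.0200 in Rnf111+/- ovaries (SD, n = 3 each), and type IV chains for the next part, at 0.167% ± 0.0166 and 0.121% ± 0.00504. The FACIT share overlapped between genotypes (0.0202% ± 0.00174 and 0.0215% ± 0.00242), as did the share of the other types (0.120% ± 0.00614 and 0.120% ± 0.00870). In bulk tissue, fewer cells of a type and less RNA per cell cannot be told apart.

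**Figure D1:**
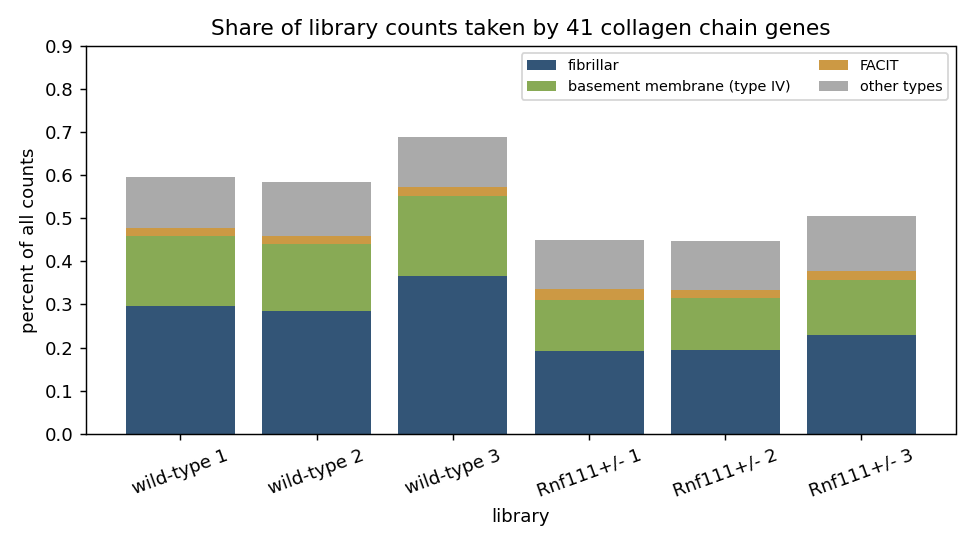
Each bar is 1 library, the y axis is the percent of all its counts, and the colours stand for the 4 classes of the 41 collagen chain genes. All 3 Rnf111+/- bars (0.449, 0.448 and 0.506%) end below the lowest wild-type bar (0.585%), and wild-type replicate 3 is the highest.

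Expression was tested with edgeR's quasi-likelihood test on all 16841 genes with enough counts, and a gene is called here when its p, adjusted by Benjamini-Hochberg over all of them, is under 0.05. Of the 41 collagen chain genes, 15 were called (36.6%), against a background of 9.64% of all tested genes. Of these, 5 were higher in Rnf111+/- ovaries, where 3.9% of all genes were called higher, and 10 were lower, where 5.74% of all genes were called lower. Their median log2 fold change was -0.05, against -0.01 for all tested genes. For 26 of the 41 genes every library of one genotype lay above every library of the other (12 higher and 14 lower), where 32% of all tested genes did so (15.1% higher and 16.9% lower). Without wild-type replicate 3, all 15 calls remained and 6 more were added, giving 7 higher and 14 lower, while the background rose to 16.2% of all tested genes (7.37% higher and 8.82% lower). With DESeq2, 8 chains were called higher and 13 lower, against 15.5% of all genes (6.96% higher and 8.57% lower). By class, the fibrillar chains gave 5 calls lower and 1 higher, the type IV chains 2 lower and 3 higher, the FACIT chains 2 lower and the 18 other chains 1 of each.

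**Figure D2:**
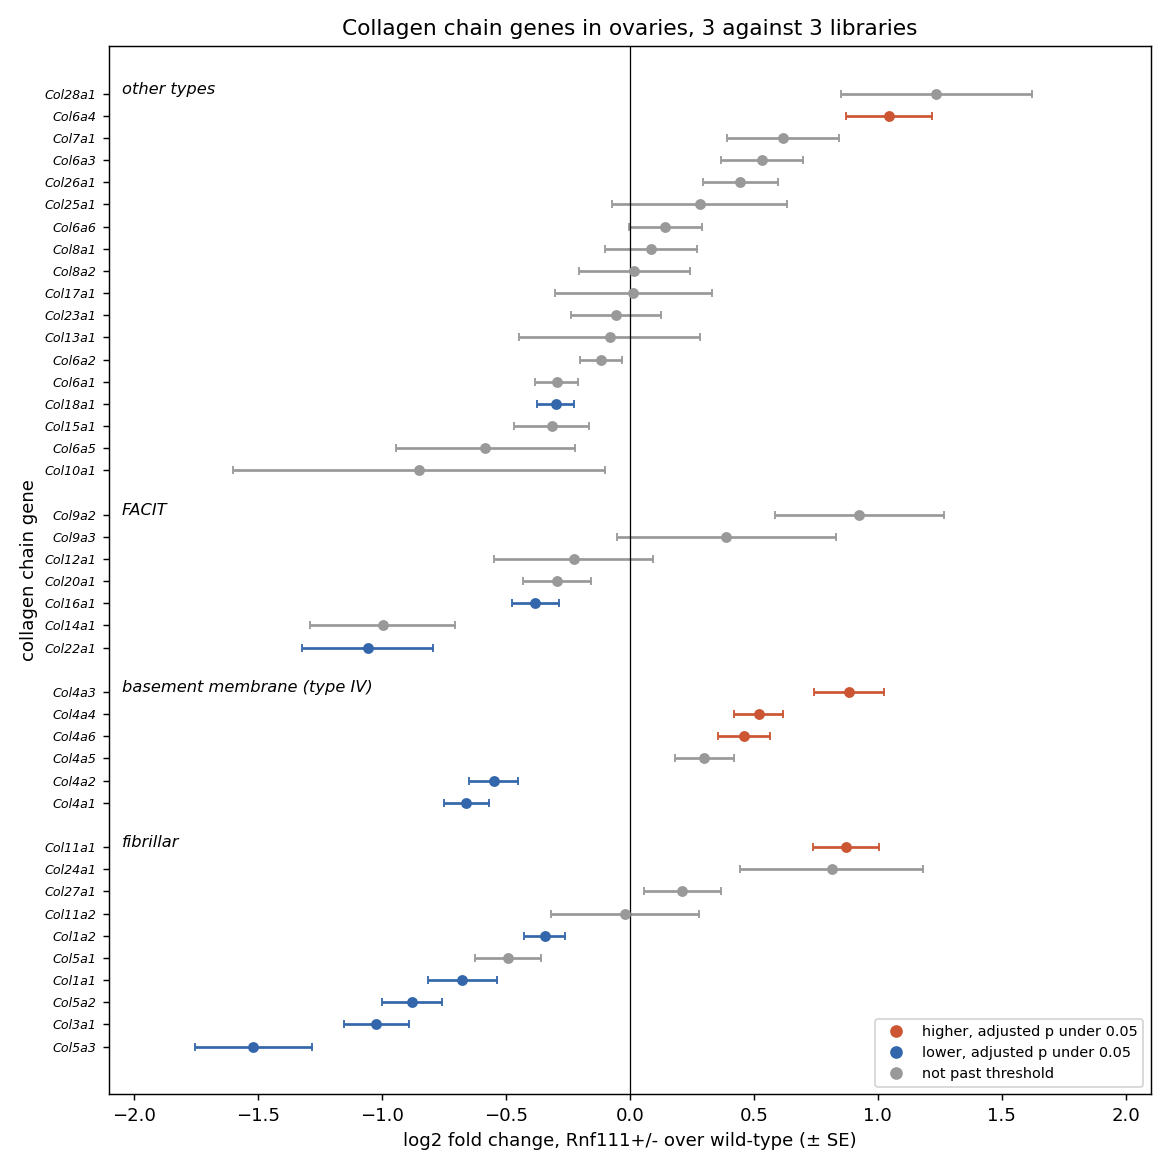
The x axis is the log2 fold change of Rnf111+/- over wild-type ovaries and each row is 1 of the 41 collagen chain genes by class, with the standard error as the bar. Orange points (5) were called higher, blue points (10) were called lower and grey points (26) did not pass the threshold. In the type IV class Col4a1 and Col4a2 lie left of 0 and the other 4 chains lie right of it.

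Of the 41 genes, 33 were found in RefSeq's table of promoters (GRCm38.p6), with 35 windows of the 250 bases before the transcription start. Printed here are the windows of 4 called genes, 2 lower and 2 higher, from the fibrillar and type IV classes, chosen with their values known and because each overlaps 0 bases of annotated exon. They are Col3a1 (chr1:45311288-45311537, plus strand), Col5a3 (chr9:20815068-20815317, minus strand), Col11a1 (chr3:114030290-114030539, plus strand) and Col4a6 (chrX:141474077-141474326, minus strand), each written 5′ to 3′ on the strand of its gene. Capitals mark 3 common promoter motifs, searched on both strands and free to overlap: TATAAA (the TATA box), CCAAT (the CCAAT box) and GGGCGG (the GC box).
Col3a1: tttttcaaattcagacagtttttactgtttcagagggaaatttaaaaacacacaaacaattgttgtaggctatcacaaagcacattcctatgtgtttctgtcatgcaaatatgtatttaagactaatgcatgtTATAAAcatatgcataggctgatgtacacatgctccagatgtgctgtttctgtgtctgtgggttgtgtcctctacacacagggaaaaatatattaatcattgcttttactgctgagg
Col5a3: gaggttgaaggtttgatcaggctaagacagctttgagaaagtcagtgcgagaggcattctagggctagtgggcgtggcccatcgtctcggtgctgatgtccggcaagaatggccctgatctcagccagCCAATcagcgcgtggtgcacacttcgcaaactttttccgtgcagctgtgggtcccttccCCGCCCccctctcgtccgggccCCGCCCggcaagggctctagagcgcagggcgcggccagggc
Col11a1: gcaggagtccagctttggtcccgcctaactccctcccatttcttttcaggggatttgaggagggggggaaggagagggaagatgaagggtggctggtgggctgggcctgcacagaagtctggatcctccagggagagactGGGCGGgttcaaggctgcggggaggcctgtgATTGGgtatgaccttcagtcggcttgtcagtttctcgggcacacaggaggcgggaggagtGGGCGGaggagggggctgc
Col4a6: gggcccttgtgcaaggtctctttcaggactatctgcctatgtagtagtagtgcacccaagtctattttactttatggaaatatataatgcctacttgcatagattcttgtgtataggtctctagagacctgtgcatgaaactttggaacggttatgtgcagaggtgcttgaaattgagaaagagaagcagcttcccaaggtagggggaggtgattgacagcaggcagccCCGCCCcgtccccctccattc
The Col3a1 window, of 35.2% GC, held TATAAA, starting at position -117 from the transcription start, and neither of the other 2 motifs. Whether this or any other match acts in the promoter was not tested. Those of Col5a3 (62.8% GC) and Col11a1 (62.4% GC), which changed in opposite directions, both held CCAAT and GGGCGG, and that of Col4a6 (47.6% GC) held GGGCGG. Over the 35 windows, TATAAA was found in 5, CCAAT in 12 and GGGCGG in 22, and over all 32851 windows of the table the shares were 12.4%, 33.8% and 32.7%. The SMAD motifs AGCCAGACA and GTCTAGAC were in 0 of the 35 windows, and in 0.301% and 0.167% of all windows. Motifs this rare would seldom be met in 35 windows, so their absence tells nothing about these genes. The called genes Col1a1, Col4a3, Col5a2 and Col22a1 had no window.

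Most calls in the fibrillar class were falls. Of its 10 chains, 5 were called lower, 1 was called higher and 4 did not pass, with a median log2 fold change of -0.42. Over all tested genes, 5.74% were called lower and 3.9% higher. Col3a1, the single chain of type III collagen, the fine fibrils of soft tissue, stood at 1241, 1192 and 1612 CPM in wild type and at 619, 620.4 and 751 CPM in Rnf111+/- ovaries. Every Rnf111+/- library lay below every wild-type library, and Col3a1 fell to 49.2% of the wild-type mean (log2 fold change -1.02 ± 0.13 SE, adjusted p = 0.00395). Without wild-type replicate 3, its highest library, the log2 fold change was -0.86 (adjusted p = 8.1e-05).

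Type I collagen, the main fibril of most connective tissue, pairs the products of Col1a1 and Col1a2, and both genes fell. Col1a1 stood at 551, 545 and 678.1 CPM in wild type and at 320.3, 346.1 and 443.5 CPM in Rnf111+/- ovaries, without overlap (log2 fold change -0.68 ± 0.14 SE, adjusted p = 0.0233). Col1a2 stood at 875.1, 865.4 and 944.6 CPM against 663.1, 679.9 and 773.4 CPM, also without overlap (log2 fold change -0.34 ± 0.08 SE, adjusted p = 0.035). Both genes were highest in wild-type replicate 3 among the wild-type libraries and in replicate 3 among the Rnf111+/- libraries. The ratio of Col1a1 to Col1a2 RNA per kilobase was 0.568, 0.568 and 0.647 in wild type and 0.436, 0.459 and 0.517 in Rnf111+/- ovaries. Its level, like that of the other ratios given here, depends on the length taken for each gene, here the longest protein-coding transcript. With the length of all annotated exons the means were 1.25 and 0.988. Col1a1 lost its call without Rnf111+/- replicate 1 (adjusted p = 0.0777) or 2 (0.0991), and Col1a2 without wild-type replicate 1 (0.0865) or 2 (0.0859) or Rnf111+/- replicate 1 (0.122) or 2 (0.155).

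Type V collagen is a minor fibril component that sets fibril diameter, and its chains are encoded by Col5a1, Col5a2 and Col5a3. Col5a2 stood at 98.9, 102.6 and 134 CPM in wild type and at 56.2, 60.9 and 65.1 CPM in Rnf111+/- ovaries, and fell without overlap (log2 fold change -0.88 ± 0.12 SE, adjusted p = 0.00475). Col5a3 stood at 6.29, 6.25 and 4.70 CPM in wild type and at 1.89, 1.69 and 2.43 CPM in Rnf111+/- ovaries, and had the lowest log2 fold change of the 41 genes (-1.52 ± 0.23 SE, adjusted p = 0.00707). Unlike the other called fibrillar chains, it was lowest in replicate 3 among the wild-type libraries. Col5a1 stood at 142.1, 140.3 and 188.7 CPM against 104.2, 104.6 and 126.5 CPM; the groups did not overlap, but it missed the threshold (log2 fold change -0.49 ± 0.13 SE, adjusted p = 0.0569), which it passed without wild-type replicate 3 (-0.33, adjusted p = 0.0272) and with DESeq2 (adjusted p = 0.0100). The ratio of Col5a1 to Col5a2 RNA per kilobase was 1.13, 1.08 and 1.11 in wild type and 1.46, 1.35 and 1.53 in Rnf111+/- ovaries, again without overlap.

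Col11a1, a chain of type XI collagen best known from cartilage, where it starts fibrils, was the one fibrillar gene called higher. It stood at 43.6, 35.1 and 52.6 CPM in wild type and at 81.1, 78.8 and 80.3 CPM in Rnf111+/- ovaries (log2 fold change 0.87 ± 0.13 SE, adjusted p = 0.00733). The Rnf111+/- libraries were tightly grouped and all above the highest wild-type library. Since type V and type XI chains can join in mixed fibrils, the ratio of Col11a1 to Col5a1 RNA per kilobase was computed after the values were seen; it was 0.336, 0.274 and 0.306 in wild type and 0.853, 0.826 and 0.696 in Rnf111+/- ovaries. The cartilage fibril chain Col2a1 was at 4 counts or fewer in every library, and the chondrocyte and bone markers summed to 6.97 to 9.74 CPM in wild type and 4.44 to 6.10 CPM in Rnf111+/- ovaries, with 0 of the 3 tested markers of 6 listed called by edgeR or DESeq2, or at an unadjusted p under 0.05.

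The remaining fibrillar chains did not pass. Col24a1 was at 0.652 to 1.19 CPM in wild type and 1.20 to 2.17 CPM in Rnf111+/- ovaries (log2 fold change 0.81 ± 0.37 SE, adjusted p = 0.210), Col27a1 at 29.6 to 44.9 against 39.4 to 45.5 CPM (adjusted p = 0.444) and Col11a2 at 1.15 to 1.48 against 1.12 to 1.47 CPM (adjusted p = 0.978). Col27a1 passed without wild-type replicate 3, its second highest library of the 6 (log2 fold change 0.42, adjusted p = 0.0164).

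Among cells known to produce fibrillar collagen, summed markers of stromal fibroblasts and of smooth muscle and pericytes were lower in the Rnf111+/- libraries. The sum of theca and interstitium markers was lower too, but its genes went both ways. The calls stand beside 3.9% of all tested genes called higher and 5.74% called lower. The 7 stromal fibroblast markers summed to 877 to 943 CPM in wild type and 597 to 639 CPM in Rnf111+/- ovaries, with 2 of 7 called lower, the proteoglycans Lum (log2 fold change -0.92 ± 0.08 SE, adjusted p = 0.000491) and Dcn (-0.89 ± 0.16 SE, adjusted p = 0.0183), and 0 called higher. The 7 smooth muscle and pericyte markers summed to 1135 to 1431 CPM against 716 to 952 CPM, with 2 of 7 called lower and 0 higher. The 6 theca and interstitium markers summed to 7444 to 8820 CPM against 5200 to 7346 CPM, with 1 called higher and 2 lower. The largest part of that sum, Cyp11a1, overlapped (log2 fold change -0.34, adjusted p = 0.215), and Star (-0.84, 0.00467) and Fdx1 (-0.83, 0.0218) were called lower. Cyp17a1 was called higher (6.13 ± 0.45 SE, adjusted p = 0.00173). Insl3 and Ptch1 were also higher without overlap but did not pass (adjusted p = 0.134 and 0.142). Oviduct epithelium markers overlapped between genotypes. These 4 genes, with 0 called by edgeR or DESeq2 or at an unadjusted p under 0.05, summed to 9.71 to 170 CPM in wild type, the highest in wild-type replicate 3, and to 12.1 to 15.7 CPM in Rnf111+/- ovaries. None of these markers was at 0 counts in all 6 libraries, and their part in the collagen differences was not tested.

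Type IV collagen was divided between its chains. Of 6 genes, the 2 of the ubiquitous network were called lower and 3 of the 4 others were called higher. Of all tested genes, 5.74% were called lower and 3.9% higher. The values of all 6 did not overlap between genotypes, as was so for 32% of all tested genes. Col4a1 stood at 958.9, 918.3 and 1106 CPM in wild type and at 596.7, 615.5 and 676.7 CPM in Rnf111+/- ovaries (log2 fold change -0.66 ± 0.09 SE, adjusted p = 0.00447). Col4a2, its partner in the network found in nearly all basement membranes, stood at 501.8, 488.2 and 618.1 CPM against 359.8, 351.7 and 386.8 CPM (log2 fold change -0.55 ± 0.10 SE, adjusted p = 0.0131). Both fell, and the ratio of Col4a1 to Col4a2 RNA per kilobase was 1.86, 1.83 and 1.75 in wild type and 1.62, 1.71 and 1.71 in Rnf111+/- ovaries. Their log2 fold changes were -0.57 and -0.43 without wild-type replicate 3. Col4a2 lost its call without Rnf111+/- replicate 1 (adjusted p = 0.0575) or 2 (0.0740). Col4a1 and Col4a2 are neighbours read from opposite strands, and their annotated exons share 22 bases.

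Col4a3, Col4a4 and Col4a5 encode the chains of the network best known from the kidney glomerulus, and Col4a6 that of a network with Col4a5 in epithelial and smooth muscle basement membranes. Col4a3 stood at 8.77, 7.33 and 7.36 CPM in wild type and at 15.2, 13.2 and 14.9 CPM in Rnf111+/- ovaries (log2 fold change 0.88 ± 0.14 SE, adjusted p = 0.00813). Col4a4 stood at 41.4, 37.4 and 35.3 CPM against 57.0, 48.9 and 57.5 CPM (log2 fold change 0.52 ± 0.10 SE, adjusted p = 0.0149). Col4a6 stood at 23.3, 27.3 and 23.3 CPM against 34.0, 36.5 and 31.2 CPM (log2 fold change 0.46 ± 0.11 SE, adjusted p = 0.0301). These 3 genes rose, with every Rnf111+/- library above every wild-type library. Col4a5 stood at 88.6, 95.8 and 69.2 CPM against 97.6, 111.5 and 103.2 CPM, also without overlap, but did not pass (log2 fold change 0.30 ± 0.12 SE, adjusted p = 0.159), and without wild-type replicate 3, its lowest library, the log2 fold change was 0.19. Col4a4 lost its call without wild-type replicate 2 (adjusted p = 0.0512) or Rnf111+/- replicate 1 (0.0619) or 3 (0.0761), and Col4a6 without wild-type replicate 1 (0.0918) or Rnf111+/- replicate 1 (0.0851), 2 (0.124) or 3 (0.0616). Annotated exons of Col4a3 share 563 bases (5.65%) with a transcript of the opposite strand, C430014B12Rik, whose reads cannot be told apart here.

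The minor chains made up a larger part of type IV RNA in all 3 Rnf111+/- libraries. On the scale of RNA per kilobase, Col4a3 to Col4a6 together made up 9.06, 9.81 and 6.56% of type IV chain RNA in the wild-type libraries and 15.8, 16.4 and 14.7% in the Rnf111+/- libraries, or 8.47% ± 1.70 and 15.6% ± 0.875 (SD, n = 3 each). Col4a1 went from 59.0% ± 0.544 to 52.8% ± 0.900, while Col4a2 overlapped at 32.5% ± 1.30 and 31.5% ± 0.635. Col4a5 was the main part of the minor chains, at 5.16% ± 1.25 in wild type and 8.86% ± 0.714 in Rnf111+/- ovaries. The ratio of Col4a3 to Col4a4 was 0.251, 0.232 and 0.246 against 0.314, 0.320 and 0.306, and that of Col4a5 to Col4a6 overlapped. These shares and ratios were not tested, and the pair ratios within Col4a3 to Col4a6 were chosen after the values were seen.

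**Figure D3:**
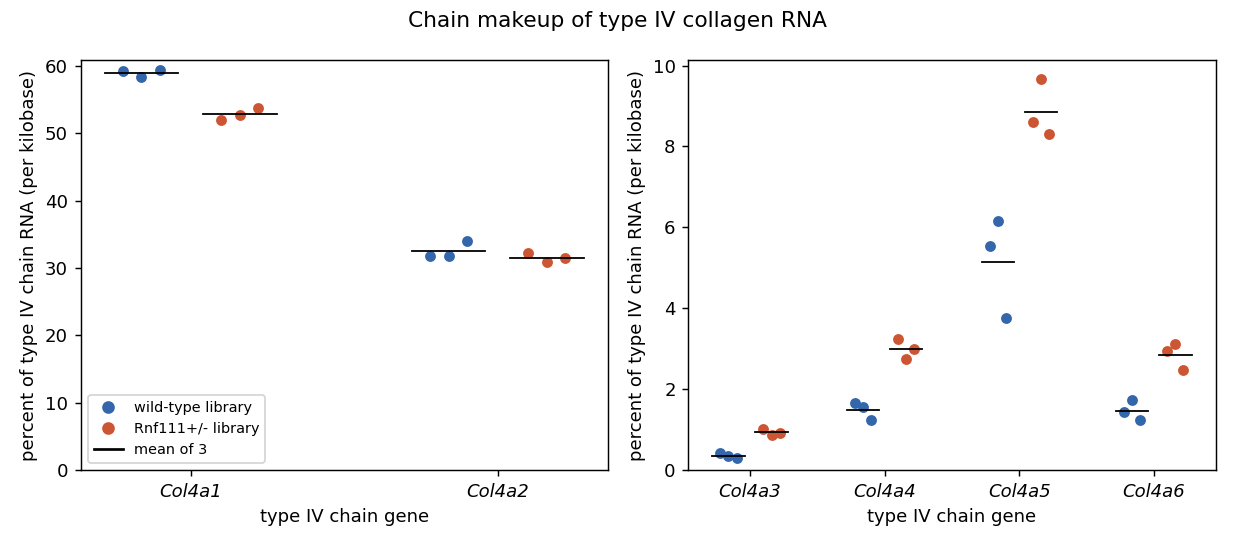
The y axes are the percent of type IV chain RNA per kilobase that each of the 6 genes made up in each library, with the line at the mean of 3. Col4a1 is lower in all 3 Rnf111+/- libraries, Col4a2 overlaps, and Col4a3, Col4a4, Col4a5 and Col4a6 are each higher in all 3.

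Markers of cells that lie on basement membranes, and of the follicle and corpus luteum, were summed in the same way. Of all tested genes, edgeR called 3.9% higher and 5.74% lower. DESeq2 called 6.96% of all genes higher, and 11.6% of tested genes were higher at an unadjusted p under 0.05. The 5 endothelial markers summed to 282 to 347 CPM in wild type and 208 to 241 CPM in Rnf111+/- ovaries, with 3 of 5 called lower. Surface epithelium markers, 7 genes, summed to 481 to 546 CPM against 374 to 413 CPM, with 3 of 7 called lower. Granulosa markers, 7 genes, summed to 2298 to 4894 CPM against 4810 to 6747 CPM and overlapped, with 0 called by edgeR, 2 higher at an unadjusted p under 0.05 and 2 called higher by DESeq2. The 5 oocyte markers summed to 118 to 131 CPM against 162 to 222 CPM, with 3 of 5 called higher, and the 5 corpus luteum markers to 743 to 2231 CPM against 4671 to 7147 CPM, with 1 of 5 called lower and 0 called higher by edgeR (2 higher at an unadjusted p under 0.05 and 2 by DESeq2). None of these markers was at 0 in all libraries, and their part in the type IV differences was not tested.

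FACIT chains gave 2 calls of 7, both lower, where 5.74% of all tested genes were called lower, with a median log2 fold change of -0.29. Col16a1, whose product binds fibrils and fibrillin, stood at 70.2, 69.0 and 82.2 CPM in wild type and at 53.4, 54.7 and 61.9 CPM in Rnf111+/- ovaries (log2 fold change -0.38 ± 0.10 SE, adjusted p = 0.0401). Col22a1, a chain of tissue junctions such as that of muscle and tendon, stood at 3.601, 3.939 and 4.597 CPM against 2.366, 2.069 and 1.384 CPM (log2 fold change -1.06 ± 0.26 SE, adjusted p = 0.0402). In both genes the groups did not overlap, but either call held in only 1 of the 6 fits that left out a library, that without wild-type replicate 3, and adjusted p reached 0.160 for Col16a1 and 0.128 for Col22a1 in the others. Col16a1 also lost its call under upper-quartile scaling (0.0519).

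Col14a1, which coats fibrils in skin, tendon and stroma, stood at 6.84, 12.5 and 5.77 CPM in wild type and at 3.76, 4.73 and 4.08 CPM in Rnf111+/- ovaries. The groups did not overlap, wild-type replicate 2 was far above the rest, and it did not pass (log2 fold change -0.998 ± 0.293 SE, adjusted p = 0.0684). Among the alternatives it passed without wild-type replicate 3 (-1.20, adjusted p = 0.00875), with DESeq2 (adjusted p = 0.0104) and with no filter on low counts (adjusted p = 0.0370). Col12a1, a related chain of dense connective tissue, stood at 43.8, 37.7 and 86.0 CPM against 42.9, 46.0 and 54.2 CPM and overlapped (log2 fold change -0.23 ± 0.32 SE, adjusted p = 0.717). Its sign rested on wild-type replicate 3, without which the log2 fold change was 0.24 (adjusted p = 0.184). Col9a2 stood at 62.8, 51.4 and 29.1 CPM in wild type and at 123.2, 71.9 and 77.2 CPM in Rnf111+/- ovaries, higher in all 3 but widely spread and not past the test (log2 fold change 0.93 ± 0.34 SE, adjusted p = 0.163). Its partners in type IX collagen were scarce, with Col9a3 at 0.470 to 1.15 CPM over the 6 libraries and Col9a1 below the minimum. Col20a1 was at 11.3 to 13.9 CPM against 10.01 to 11.03 CPM and did not pass (adjusted p = 0.218). Annotated exons of Col9a3 share 234 bases (6.07%) with Tcfl5 on the opposite strand.

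Among the other types, the beaded-filament chains of type VI collagen, which forms a microfibril network around cells, differed from one another. The common trimer joins the products of Col6a1, Col6a2 and Col6a3. Col6a1 stood at 484, 502 and 437.4 CPM in wild type and at 367.3, 366.8 and 425.2 CPM in Rnf111+/- ovaries; the groups did not overlap and it missed the threshold (log2 fold change -0.30 ± 0.09 SE, adjusted p = 0.0685). Col6a2 stood at 288.5, 323.7 and 280.9 CPM against 267, 258.7 and 298.2 CPM and overlapped (log2 fold change -0.12 ± 0.08 SE, adjusted p = 0.439). Col6a3 stood at 101.6, 101.3 and 139.9 CPM against 149.1, 148.7 and 198.1 CPM, higher in all 3 Rnf111+/- libraries but not past the test (log2 fold change 0.53 ± 0.17 SE, adjusted p = 0.0928). Without wild-type replicate 3, Col6a1 (-0.34, adjusted p = 0.0112) and Col6a3 (0.71, adjusted p = 0.0064) both passed, in opposite directions, and both passed with DESeq2 (adjusted p = 0.0343 and 0.0121). The ratio of Col6a3 to Col6a1 RNA per kilobase was 0.0851, 0.0818 and 0.130 in wild type and 0.165, 0.164 and 0.189 in Rnf111+/- ovaries, and that of Col6a1 to Col6a2 was 1.90, 1.76 and 1.77 against 1.56, 1.61 and 1.62.

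Of the 18 chains of other types, 11.1% were called, near the 9.64% of all tested genes. Col6a4, whose product can take the place of the Col6a3 product, was the one type VI gene called. It stood at 66.0, 78.7 and 51.9 CPM in wild type and at 111, 143.9 and 150.5 CPM in Rnf111+/- ovaries, and rose without overlap (log2 fold change 1.04 ± 0.17 SE, adjusted p = 0.0138). The call was lost without Rnf111+/- replicate 2 (adjusted p = 0.0588) or 3 (0.0554). Its relatives Col6a5 (3.16 to 10.1 CPM over the 6 libraries) and Col6a6 (9.19 to 12.9 CPM) overlapped and did not pass (adjusted p = 0.363 and 0.598).

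**Figure D4:**
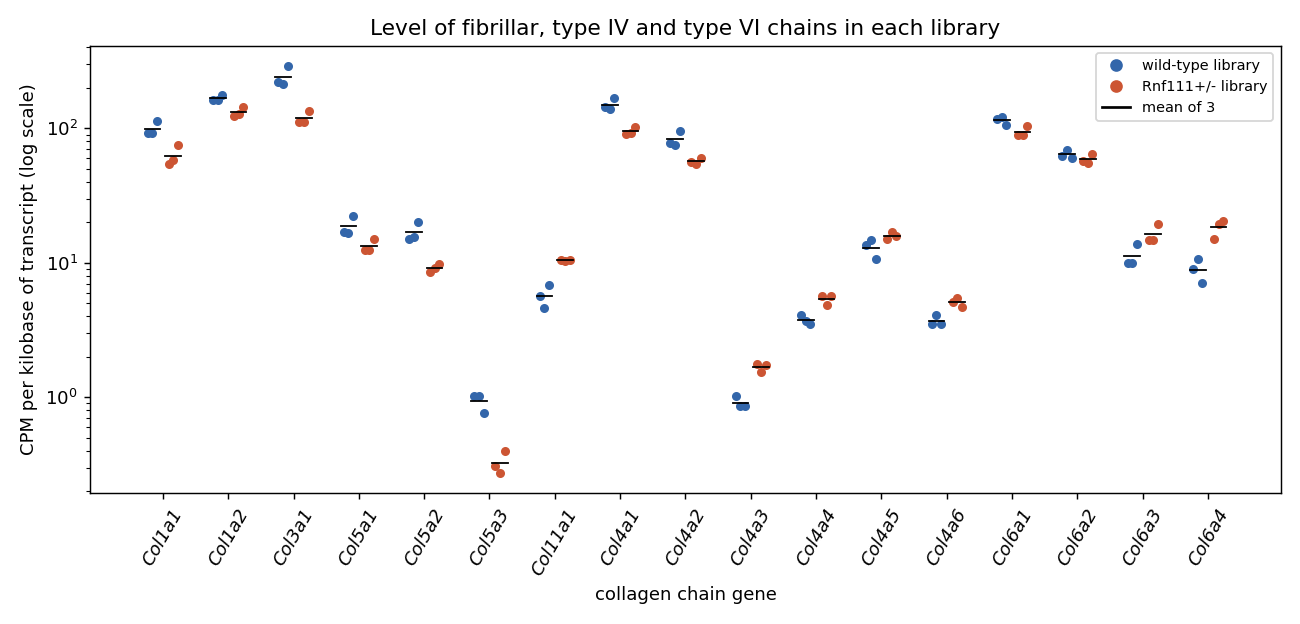
The y axis, on a log scale, is CPM per kilobase of transcript of 17 fibrillar, type IV and type VI genes, each point is 1 library and each line the mean of 3. Col3a1, Col1a2, Col4a1 and Col6a1 stand highest in wild type, and Col11a1, Col4a3, Col4a4, Col4a6 and Col6a4 are the 5 genes called higher in Rnf111+/- ovaries.

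Col18a1 and Col15a1 encode the multiplexins of basement membranes, whose ends release endostatin and a related fragment. Col18a1 stood at 100.1, 112 and 112.9 CPM in wild type and at 92.7, 85.9 and 85.4 CPM in Rnf111+/- ovaries, and was called lower (log2 fold change -0.30 ± 0.07 SE, adjusted p = 0.0402). That call held in only 1 of the 6 fits that left out a library, the one without wild-type replicate 3 (adjusted p up to 0.169 in the others), and was lost with upper-quartile scaling (0.0583). Col15a1 stood at 94.7, 110.8 and 70.5 CPM against 70.8, 72.6 and 78.4 CPM (log2 fold change -0.32 ± 0.15 SE, adjusted p = 0.244). Its wild-type replicate 3 was the lowest library of the 6, and without it the gene passed (log2 fold change -0.46, adjusted p = 0.00339).

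The other 10 chains did not pass. Col7a1, the anchoring fibril chain, Col26a1 and Col28a1 were each higher in all 3 Rnf111+/- libraries without overlap, as were 15.1% of all tested genes. Counting both directions, 38.9% of the 18 chains of other types did not overlap, near the 32% of all tested genes. Their wild-type ranges were 2.01 to 2.43, 10.9 to 13.4 and 0.444 to 0.544 CPM, and their Rnf111+/- ranges 2.96 to 3.89, 14.4 to 19.2 and 0.914 to 1.56 CPM. Their log2 fold changes were 0.62, 0.45 and 1.24 (adjusted p = 0.129, 0.104 and 0.0818), and Col26a1 and Col28a1 passed with DESeq2 (adjusted p = 0.0451 and 0.0445). The short-chain network genes Col8a1, Col8a2 and Col10a1 overlapped, with log2 fold changes of 0.08, 0.02 and -0.85 (adjusted p of at least 0.533). All 4 transmembrane collagens overlapped too: Col13a1, Col17a1, Col23a1 and Col25a1 had log2 fold changes from -0.08 to 0.28 (adjusted p of at least 0.672). Of these 7 genes, 0 were called by edgeR or DESeq2, or at an unadjusted p under 0.05.

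Levels can be compared between chains only per length, here that of the longest annotated protein-coding transcript. In wild type, Col3a1 led at 242 ± 41.3 CPM per kilobase (SD, n = 3), ahead of Col1a2 (167 ± 8.08), Col4a1 (150 ± 14.9), Col6a1 (116 ± 8.14), Col1a1 (99.7 ± 12.7), Col4a2 (83.1 ± 11.1) and Col6a2 (64.0 ± 4.91), and the next gene, Col18a1, was at 19.4 ± 1.28 CPM per kilobase. In Rnf111+/- ovaries Col1a2 led at 132 ± 11.1 CPM per kilobase (SD, n = 3) and Col3a1 followed at 119 ± 13.6, the 2 ranges of 1 SD overlapping, although Col1a2 was the higher of the pair in all 3 libraries. Col4a1 (95.2 ± 6.32) and Col6a1 (94.3 ± 8.19) followed, and Col1a1 (62.4 ± 11.0), Col6a2 (59.0 ± 4.47) and Col4a2 (56.8 ± 2.85) had overlapping ranges. With the length of all annotated exons of a gene together, a choice added after the data were seen, the order changed: Col1a2 stood in place 6 in wild type and 4 in Rnf111+/- ovaries, since that length, 12426 bases, is far above its transcript's 5348, and Col3a1 stood in place 1 and 3. The 41 genes spanned levels down to 0.113 CPM per kilobase for Col10a1 in wild type. The spread between libraries was larger in wild type for 29 of the 41 genes, with a median coefficient of variation of 16.1% against 11.4%. The wild-type spread includes replicate 3, which stood apart, and was not computed without it.

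Genes that make, trim, bind and degrade collagen were described by 4 lists drawn from general knowledge. The enzymes and chaperones of collagen synthesis in the endoplasmic reticulum, 20 genes, gave 3 calls higher and 2 lower, with a median log2 fold change of -0.16, against 3.9% of all tested genes called higher and 5.74% lower. The counts were 3 higher and 6 lower without wild-type replicate 3, where 7.37% of all genes were called higher and 8.82% lower. Colgalt2, which adds galactose to hydroxylysine, stood at 14.93, 13.995 and 8.12 CPM in wild type and at 25.9, 32.0 and 25.9 CPM in Rnf111+/- ovaries (log2 fold change 1.18 ± 0.22 SE, adjusted p = 0.0181). P3h2, a prolyl 3-hydroxylase that acts on type IV collagen, stood at 24.7, 22.7 and 34.4 CPM against 52.2, 41.8 and 52.9 CPM (log2 fold change 0.84 ± 0.17 SE, adjusted p = 0.0215). Plod2, a lysyl hydroxylase of the telopeptides, stood at 254.1, 251.7 and 306.9 CPM against 329.1, 436.3 and 429.1 CPM (log2 fold change 0.56 ± 0.13 SE, adjusted p = 0.0309). These 3 rose, while Crtap, a partner of prolyl 3-hydroxylase 1, fell from 161.6, 162.1 and 145 CPM to 117.2, 116.6 and 114.8 CPM (log2 fold change -0.43 ± 0.07 SE, adjusted p = 0.00841). P4hb, the beta subunit of prolyl 4-hydroxylase and also a general disulfide isomerase, was the other gene called lower and is named after its value was seen (log2 fold change -0.29 ± 0.08 SE, adjusted p = 0.0446). Of these 5 calls only that of Crtap held in all 6 fits that left out a library. Adjusted p reached 0.0739 for Colgalt2 (lost without any of the 3 Rnf111+/- libraries), 0.0887 for P3h2 (lost without wild-type replicate 1 or 2 or Rnf111+/- replicate 1 or 3), 0.113 for Plod2 (lost without wild-type replicate 1 or 2 or Rnf111+/- replicate 2 or 3) and 0.175 for P4hb (lost without any library but wild-type replicate 3).

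Propeptide processing and crosslinking, 14 genes, gave 4 calls lower and 1 higher, with a median log2 fold change of -0.71, against the same 5.74% and 3.9% of all tested genes. They were 6 lower and 2 higher without wild-type replicate 3, where 8.82% of all genes were called lower and 7.37% higher. The added calls were Lox and Loxl1 lower and Loxl3 higher. The median lies between Loxl1 and Loxl2, whose log2 fold changes were -0.72 and -0.71. Without wild-type replicate 3 they were -0.43 and -0.31. Pcolce, the enhancer of the proteinase that removes the C-terminal propeptide of fibrillar procollagen, stood at 438.2, 438.9 and 419.9 CPM in wild type and at 207.3, 179.7 and 238.6 CPM in Rnf111+/- ovaries (log2 fold change -1.05 ± 0.10 SE, adjusted p = 0.000918). Loxl4, a lysyl oxidase that crosslinks collagen, stood at 9.11, 6.19 and 3.88 CPM against 0.822, 0.741 and 0.679 CPM (log2 fold change -3.09 ± 0.35 SE, adjusted p = 0.00164). Both calls held in all 6 fits that left out a library, and the groups were far apart. Adamts3, which removes the N-terminal propeptide, fell from 3.94, 3.50 and 4.14 CPM to 1.44, 1.40 and 1.88 CPM (log2 fold change -1.29 ± 0.24 SE, adjusted p = 0.0137), and its relative Adamts2, named after its value was seen, rose from 263, 263 and 213.5 CPM to 324.5, 394.5 and 321.9 CPM (log2 fold change 0.49 ± 0.11 SE, adjusted p = 0.0294). Tll2, a proteinase of the tolloid family, stood at 2.64, 2.05 and 0.434 CPM against 0.224, 0.153 and 0.183 CPM (log2 fold change -3.17 ± 0.68 SE, adjusted p = 0.0243). Adamts3 lost its call without Rnf111+/- replicate 1 (adjusted p = 0.0530) or 2 (0.0715), and the calls of Adamts2 and Tll2 held only without wild-type replicate 3 among the 6 fits (up to 0.103 and 0.107 in the others). Tll2 also lost its call with limma-voom on all 6 libraries (log2 fold change -2.76, adjusted p = 0.114).

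**Figure D5:**
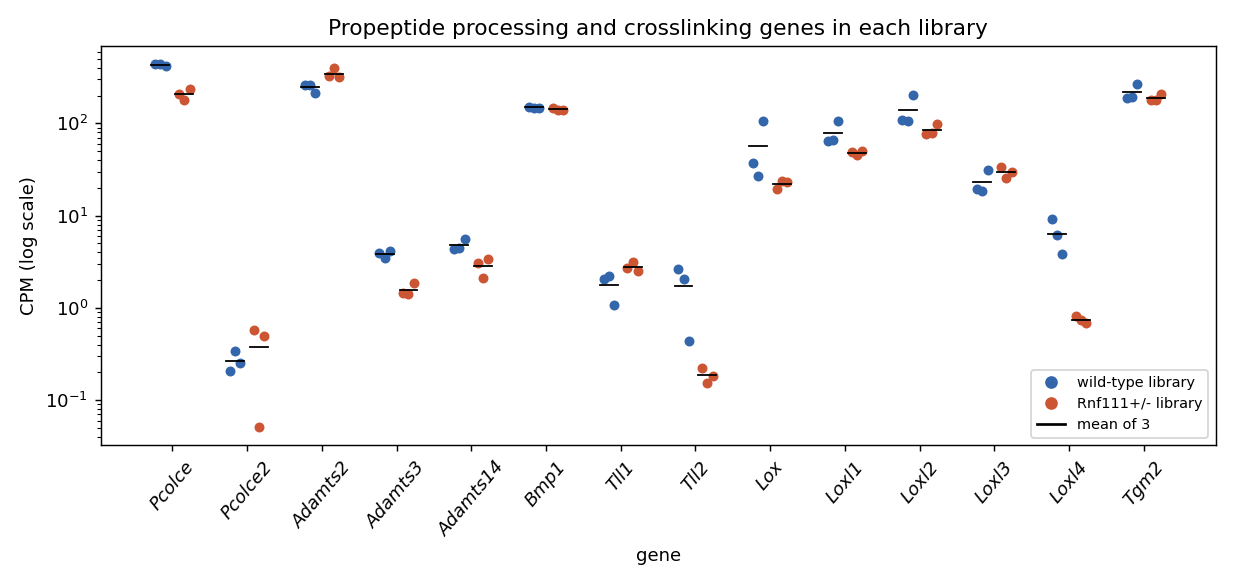
The y axis, on a log scale, is CPM of the 14 genes of propeptide processing and crosslinking, each point is 1 library and each line the mean of 3. Pcolce, Adamts3, Loxl4 and Tll2 were called lower and Adamts2 higher in Rnf111+/- ovaries, and wild-type replicate 3 is the highest library for Lox, Loxl1 and Loxl2.

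Collagen receptors, 11 genes of which Gp6 was too sparse to test, gave 0 calls with edgeR in 10 tested, where 9.64% of all genes were called. At an unadjusted p under 0.05 there were 6 (3 higher and 3 lower), against 25.5% of all tested genes (11.6% higher and 13.9% lower), and DESeq2 called 2 higher and 2 lower, against 15.5% of all genes. The lowest adjusted p values were those of the discoidin receptor Ddr2 (log2 fold change -0.40, adjusted p = 0.0706) and of 3 alpha subunits of collagen-binding integrins, Itga11 (-0.43, 0.0859), Itga2 (0.90, 0.120) and Itga1 (-0.42, 0.133). Without wild-type replicate 3, Itga11 was called lower (-0.51, adjusted p = 0.0233) and the discoidin receptor Ddr1, named after its value was seen, was called higher (0.51, adjusted p = 0.000787, against 0.32 and 0.186 with all libraries), while the log2 fold change of Ddr2 was -0.25. Of 12 collagenases, gelatinases and their inhibitors, 10 were tested (Mmp8 was too sparse and Mmp1a had 0 counts in every library) and 1 was called lower, where 5.74% of all genes were. Mmp15, a membrane-bound metalloproteinase, fell from 47.2, 50.8 and 50.5 CPM to 36.1, 32.5 and 34.1 CPM (log2 fold change -0.53 ± 0.08 SE, adjusted p = 0.00657). The gelatinases Mmp2 (log2 fold change -0.25, adjusted p = 0.169) and Mmp9 (-0.55, 0.367) and the inhibitor Timp2 (-0.18, 0.351) did not pass. Without wild-type replicate 3, Mmp9 was called lower (-0.85, adjusted p = 0.0296) and the membrane-bound metalloproteinase Mmp14, named after its value was seen, was called higher (0.50, adjusted p = 0.000728, against 0.24 and 0.441 with all libraries), while Mmp2 and Timp2 were at -0.12 and -0.06.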

How the data were processed

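The authors deposited 1 table of raw counts per gene for the 6 ovary libraries, made from total RNA (TRIzol) with a VAHTS Universal V6 kit per the labels' protocols. The submitters' processing notes name fastp 0.20.1, HISAT2 2.1.0, HTSeq 0.11.2, DESeq2 1.38.3 and GRCm39; no source used here states the annotation or the strand setting, and reads of genes that overlap on opposite strands cannot be told apart. All 6 columns carried a sample, and every row named a gene.

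Counts were tested with edgeR 4.0.16 (R 4.3.3): filterByExpr (minimum count 10, minimum total 15), TMM scaling (factors 0.980 to 1.018), a robust quasi-likelihood fit with genotype only, two-sided, and Benjamini-Hochberg adjustment over 16841 genes. Standard errors are |log2 fold change| / √F. The method was tested on simulated data. Between the most alike libraries (wild-type replicates 1 and 2), chi-square over genes was 12.4 times its degrees of freedom, and all 6 were kept. Same-numbered libraries did not deviate together (correlations 0.012, 0.006 and 0.1), so no block was used. Lengths and overlaps came from GENCODE M21 (GRCm38). Floors cover counting error only.

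The chains, classes, lists, markers and naming rule (called members, 14 major chains and up to 4 genes of smallest p per list) were chosen with earlier results of these data known. Alternatives were 2 other scalings, no filter, a stricter one (1 CPM in at least 3 libraries with a total of 50 counts), DESeq2 1.42.0, limma-voom (limma 3.58.1), a replicate block and leaving out each library.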

Additional observations from a re-analysis of the deposited data

How the results depend on the processing

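Of the collagen chains, 13 to 17 were called under the edgeR and limma-voom alternatives that kept all 6 libraries, and 21 with DESeq2, of which 8 were higher. Leaving out 1 library gave 2 to 7 called higher and 4 to 14 called lower, the most without wild-type replicate 3. Over all genes, DESeq2 called 1172 higher, and leaving out 1 library gave 224 to 1273 higher and 297 to 1522 lower. Col3a1, Col4a1, Col4a3, Col5a2, Col5a3 and Col11a1 were called in all 13 alternatives. The same-numbered libraries share only a number: with the replicate block, 17 chains were called (7 higher and 10 lower), 13 of them shared with the 15 called without it (Col5a1, Col6a3, Col9a2 and Col14a1 were added, Col18a1 and Col22a1 were lost), Rnf111 was not called (adjusted p = 0.0653), and the receptor list gave 1 higher and 2 lower. For the related lists, leaving out 1 library gave 0 to 3 higher and 1 to 6 lower for biosynthesis, 0 to 2 and 2 to 6 for processing, 0 to 1 and 0 to 1 for receptors, and 0 to 1 and 1 to 2 for degradation. DESeq2 called 7 processing genes lower and 2 receptors in each direction; with no filter 1 receptor was lower, and with upper-quartile scaling 1 biosynthesis gene was lower. Among the collagen chains, signs turned only for 7 genes that were not called: Col11a2 (0.0126 with upper-quartile scaling and -0.128 to 0.0891 without 1 library), Col12a1 (-0.436 to 0.238), Col13a1 (-0.426 to 0.126), Col17a1 (-0.0582 to 0.161), Col23a1 (-0.139 to 0.0809), Col8a1 (-0.0313 to 0.249) and Col8a2 (-0.152 to 0.223). In the related lists, Serpinh1 (-0.18 to 0.03), P4ha2 (-0.19 to 0.10) and Lair1 (-0.49 to 0.16), none of them called, also turned when wild-type replicate 3 was left out. The difference in the share of counts kept its direction, from -0.181 percentage points without the 100 most abundant other genes to -0.123 without wild-type replicate 3, and 40 of the 41 genes had 10 counts in all 6 libraries. With 1 library left out fewer samples enter the fit, and the cause of the other changes was not tested. Genes near 1 CPM, such as Col10a1, Col24a1 and Col28a1, are limited by depth.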
